A study of Mus musculus with 24 samples.

Results

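The subunits of the glutamate and GABA receptors are described here in 4 tissues (brain, liver, heart and skeletal muscle) from mice of both genotypes, WT and *Rap1* KI/KI. They comprise every gene on the arrays whose symbol names an AMPA (*Gria*), kainate (*Grik*), NMDA (*Grin*) or delta (*Grid*) subunit, a metabotropic glutamate receptor (*Grm*), a GABA-A subunit (*Gabr*) or a GABA-B subunit (*Gabbr*). These are 47 of the 21368 genes that could be named, with 72 of the 55681 probes, and all 47 of the genes with such symbols in the RefSeq table had a probe. By family they are 4 AMPA, 5 kainate, 7 NMDA and 2 delta subunits, 8 metabotropic glutamate receptors, 19 GABA-A subunits and 2 GABA-B subunits. Each gene stands for the probe that had the highest mean over all 24 arrays, whichever way that probe moved between genotypes.

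RNA of 3 WT male mice and 3 male mice labelled RAP1 MUT, which the study calls *Rap1* KI/KI, was hybridized to 1-colour Agilent arrays, with 1 array for each mouse and tissue. The homozygous knock-in allele (I312R, made with CRISPR/Cas9, on a background that the labels give as C57BL6 and the methods as C57BL/6N) changes a residue through which RAP1 binds its telomere partner TRF2, in all cells and throughout life. The 3 mice of each genotype are numbered WT1 to WT3 or KI1 to KI3, and each gave all 4 tissues. Age was 5 months for WT1 and KI1 and 2 months for the remaining 4 mice. The comparison asks whether receptor transcripts differ where RAP1 cannot be held at telomeres, in a study that also examined behaviour and neuroinflammation.

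Glutamate is the main excitatory and GABA the main inhibitory transmitter of the mammalian brain. AMPA, kainate and NMDA receptors are cation channels built from several subunits, GABA-A receptors are chloride channels of mixed subunit make-up, and metabotropic glutamate and GABA-B receptors signal through G proteins. Which subunits a cell makes sets where a receptor sits and how fast or long it opens, and several of the subunits are also made outside the nervous system.

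Promoter windows show how differently members of the same families start. RefSeq windows (GRCm38.p6) of the 250 bases before the transcription start were at hand for 32 of the 47 genes, in 39 windows, against 32851 windows in all. Those of *Gabra6*, *Gabrr1*, *Gabrr2* and *Gria2* are shown because the levels described below turn on these genes: *Gabra6* differed widely between brains, *Gabrr1* and *Gabrr2* are neighbouring genes that differed in the liver, and *Gria2* was measured on WT arrays of the brain only. They lie at chr11:42321073-42321322 (minus strand), chr4:33132306-33132555 (plus strand), chr4:33062862-33063111 (plus strand) and chr3:80802836-80803085 (minus strand), and are written 5′ to 3′ on the strand of the gene, with motif matches in capitals.
Gabra6: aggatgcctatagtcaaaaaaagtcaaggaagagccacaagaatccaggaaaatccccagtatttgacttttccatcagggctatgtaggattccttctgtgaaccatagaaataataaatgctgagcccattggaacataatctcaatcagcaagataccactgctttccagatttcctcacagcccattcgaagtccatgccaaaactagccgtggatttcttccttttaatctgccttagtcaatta
Gabrr1: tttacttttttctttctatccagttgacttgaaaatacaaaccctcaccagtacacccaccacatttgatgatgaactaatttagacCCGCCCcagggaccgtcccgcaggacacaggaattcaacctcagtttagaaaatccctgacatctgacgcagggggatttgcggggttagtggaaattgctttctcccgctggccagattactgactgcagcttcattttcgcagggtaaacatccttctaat
Gabrr2: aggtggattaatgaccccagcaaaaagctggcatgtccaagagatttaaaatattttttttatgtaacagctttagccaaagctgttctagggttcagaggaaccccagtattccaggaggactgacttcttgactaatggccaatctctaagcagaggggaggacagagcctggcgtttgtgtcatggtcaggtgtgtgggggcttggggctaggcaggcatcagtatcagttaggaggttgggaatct
Gria2: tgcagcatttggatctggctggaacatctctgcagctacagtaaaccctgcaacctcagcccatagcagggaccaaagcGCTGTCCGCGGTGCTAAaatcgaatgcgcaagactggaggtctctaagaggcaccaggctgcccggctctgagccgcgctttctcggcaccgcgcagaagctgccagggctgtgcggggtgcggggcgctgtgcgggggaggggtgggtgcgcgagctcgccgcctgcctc
The capitals mark a GC box on the minus strand of the *Gabrr1* window and an RE1-like match on the minus strand of the *Gria2* window. Their GC content was 40.8% (*Gabra6*), 46% (*Gabrr1*), 47.6% (*Gabrr2*) and 64.8% (*Gria2*), against a median of 52.4% over all windows. Motifs were searched on both strands. The GC box (GGGCGG) was in 18 of the 39 receptor windows and in 32.7% of all windows, the TATA box (TATAAA) in 4 and 12.4%, the E-box (CACGTG) in 1 (*Grin1*) and 6.02%, and the CRE (TGACGTCA) in 0 and 1.55%. The RE1-like pattern (TCAGCACC, any 2 bases, GGACAGC, with at most 1 mismatch) is a shortened form of the element bound by the neuronal silencer REST. It was in 1 receptor window, that of *Gria2*, and in 0.0457% of all windows. A match describes these letters only.

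A level of 0 stands for a processed signal at the 75th percentile of an array, and levels count log2 units from there. Probes differ in how brightly they hybridize, so levels are compared between samples and not between genes. RNA of heart and muscle was extracted with another kit than that of brain and liver, all livers were on 1 slide and all muscles on another, and these cannot be told apart from the tissue. Between 56.5% and 72.7% of all probes were well above background on an array, and the number of arrays limits the precision. The marker lists of liver, heart and skeletal muscle (6 genes each, such as *Alb*, *Myh6* and *Acta1*) had their highest medians in the tissue named by the label (8.01 to 9.13 in livers, 8.19 to 9.02 in hearts and 8.95 to 9.29 in muscles), and the 10 neuron markers were well above background on all 6 brain arrays, with medians of 5.23 to 5.86. The muscle array of KI3 stood apart before any genotype was compared. It carried the same muscle markers as the others (median 9.19), yet its neuron markers had a median of 2.23, against -3.54 to -1.95 on the other 5 muscle arrays, and 40 of the 47 receptor genes were well above background on it, against 18 to 25. Results that include this array are therefore given with and without it.

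The brain held most of the receptor transcripts in WT mice. On all 3 WT arrays of a tissue, 42 of the 47 genes were well above background in the brain, 22 in the liver, 20 in the heart and 17 in the muscle, and the number on none of the 3 arrays was 2 in the brain, 18 in the liver, 18 in the heart and 24 in the muscle. On all 3 brain arrays and on no array of another tissue were 10 genes, among them the AMPA subunit *Gria2*, the kainate subunit *Grik1*, the group II and III metabotropic receptors *Grm3* and *Grm7*, and the GABA-A subunits *Gabra4*, *Gabra5*, *Gabrb1* and *Gabrg1*. In the brain and on at least 1 array elsewhere were 15 genes, among them *Gria1*, *Gria4*, *Grik2*, *Grik3*, *Grik4*, *Grin1*, *Grin2a*, *Grin2b*, *Grin2c*, *Grin2d*, *Grin3a*, *Grid1* and *Grm4*. On all 12 WT arrays were 17 genes, among them *Gria3*, *Grik5*, *Grin3b*, *Grm2*, *Grm5*, *Grm8*, *Gabra2*, *Gabra3*, *Gabrb2*, *Gabrd*, *Gabre*, *Gabrg3*, *Gabrr1*, *Gabrr2* and the GABA-B genes *Gabbr1* and *Gabbr2*. This holds for the probe that represents each gene, and other probes of some of them did not share it. The second probe of *Gabrg3* was on WT arrays of the brain only, and that of *Gabre* on none. The 2 other probes of *Grm5* were on all 3 WT brain arrays and on at most 1 array of each other tissue. The other 5 were *Gabra6*, *Gabrp* and *Gabrq*, each on some brain arrays, *Gabrr3* on 2 liver arrays and 0 brain arrays, and *Grm6*, the receptor of retinal ON bipolar cells, on 0 of the 12 WT arrays.

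When the brain was compared with the mean of the other 3 tissues in WT mice, 44 receptor genes were tested and 37 were higher in the brain by limma (adjusted p under 0.05), or 84.1%, where 26.7% of all 40758 probes tested were. Lower in the brain were 4 genes, or 9.09%, against 38.9% of all probes. The median log2 difference was 6.35 over the receptor genes and -0.30 over all probes. These counts and the median take in genes at background outside the brain. A probe was tested if well above background on at least 3 arrays, which 10 of the genes were in the brain alone. Over the 17 genes well above background on all WT arrays, 11 were higher and 4 lower, and the median was 2.43. Of the 25201 probes tested in that way, 68.9% passed in either direction. Over 44 genes tested, *Rap1* KI/KI mice gave the same counts as WT mice. There 37 were higher (25.9% of all probes) and 4 lower (41.7% of all probes), with a median of 5.55 against -0.38. Without the muscle array of KI3 this median was 5.89.

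Among the AMPA subunits, *Gria2*, which makes the channel impermeable to calcium after editing of its RNA, had levels of -1.04, 1.74 and 1.45 in the brains of WT1, WT2 and WT3, and was on no WT array of another tissue above background. Where a gene was not well above background on any array of a group, its level there has only an upper bound. A fold is then given as at least the ratio to the lowest signal that counted as well above background on each of those arrays, or to the signal of the probe itself where that was higher. *Gria2* was at least 122-fold higher in WT brain than in WT liver, at least 91.5-fold higher than in heart and at least 68.1-fold higher than in muscle. *Gria1*, *Gria3* and *Gria4* also passed the test of brain against the mean of the other tissues (limma adjusted p of 2.54e-09, 2.46e-08 and 1.68e-08). *Gria3*, measured in all tissues, differed by 6.82 (SE 0.36) on the log2 scale. *Gria1* was at least 583-fold higher in brain than in liver and at least 326-fold higher than in muscle, and *Gria4* at least 208-fold higher than in muscle.

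All 5 kainate subunits were higher in WT brain. Against muscle, the lower bounds were 6.78-fold for *Grik2*, 26.5-fold for *Grik1* and 113-fold for *Grik3*. *Grik5*, a subunit that forms channels only together with GRIK1 to GRIK3, was the kainate gene present in every sample. Its levels were 3.56, 3.07 and 3.69 in WT brains, -0.68, -0.75 and -0.26 in livers, -0.45, -0.29 and 0.55 in hearts and -0.49, -0.24 and -0.72 in muscles. Brain lay above every other tissue, whereas liver, heart and muscle overlapped. The brain was 16.0-fold, 11.3-fold and 15.2-fold higher than liver, heart and muscle.

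Of the 7 NMDA subunits, 6 were higher in WT brain. The obligatory subunit *Grin1* (limma adjusted p = 1.5e-09) was 255-fold higher in brain than in heart and at least 302-fold higher than in muscle. The glutamate-binding subunits *Grin2a* and *Grin2b* were 8.71-fold and 37.1-fold higher in brain than in liver by the probes that represent them. A second probe of each was well above background on all 3 WT brain arrays and on 0 WT liver arrays. The liver signal, and with it these folds, rests on 1 probe each. For *Grin2c* the brain was at least 336-fold higher than muscle, and for *Grin2d* at least 12.3-fold higher than liver. *Grin3a*, a glycine-binding subunit, was at least 85.0-fold higher in brain than in muscle. Its relative *Grin3b*, known from motor neurons, differed by 0.58 on the log2 scale from the mean of the other tissues, which did not pass the test. In *Rap1* KI/KI mice the difference of *Grin3b* was 1.78 (SE 0.60, limma adjusted p = 0.0218), with the highest level in the brain of KI1. The delta subunit *Grid1*, which binds cerebellins and acts as a synaptic organizer, was also higher in WT brain, at least 18.4-fold against heart and at least 13.7-fold against muscle.

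Of the 8 metabotropic glutamate receptors, 6 were higher in WT brain, 1 was lower and *Grm6* was not tested. *Grm3*, which also sits on astrocytes, was at least 182-fold higher in brain than in liver, and *Grm7*, a presynaptic receptor, at least 261-fold. *Grm2*, a presynaptic receptor of group II, was lower in brain. It had levels of 0.48, -0.56 and 0.03 in WT brains, 1.01, 1.03 and 1.54 in livers, 1.58, 0.48 and 0.99 in hearts and 1.21, 1.03 and 0.76 in muscles. The range of the hearts met that of the brains, whereas livers and muscles lay above the brains. Its log2 difference of -1.09 (SE 0.28) had a limma adjusted p of 0.00461, and without WT3 the difference of -1.10 no longer passed.

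GABA-A receptors usually combine alpha, beta and a gamma or delta subunit, and the genes of many of these subunits stand side by side. In the RefSeq annotation 15 of the members lie in 6 runs of neighbouring genes. Among these are *Gabrr2* and *Gabrr1* on chromosome 4, *Gabrg1* and *Gabra2* as well as *Gabra4* and *Gabrb1* on chromosome 5, and *Gabra3* and *Gabrq* on the X chromosome.

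The subunits *Gabra4*, *Gabra5*, *Gabrb1* and *Gabrg1* were on brain arrays alone in WT mice, with lower bounds of 204-fold, 145-fold, 442-fold and 180-fold against the liver. *Gabrb2*, with levels of 4.76, 4.14 and 4.36 in WT brains, differed by 8.70 (SE 0.29), and *Gabrd*, the subunit of extrasynaptic receptors, by 6.91 (SE 0.28) on the log2 scale.

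Other GABA-A subunits were not higher in the brain. *Gabre*, the epsilon subunit, was lower there (-1.10, SE 0.32, limma adjusted p = 0.00967), *Gabrp*, the pi subunit known from epithelia, differed by -0.04, and *Gabrr3* was on brain arrays not above background. Of the GABA-B pair, which works only as a dimer, *Gabbr1* had levels of 5.25, 4.59 and 4.65 in WT brains and differed by 6.75 (SE 0.26, limma adjusted p = 2.55e-09). The probe that represents *Gabbr2* differed by 0.38 (limma adjusted p = 0.348). Its 2 other probes were on all 6 brain arrays and on no heart array above background, so the heart signal of *Gabbr2* (0.23, 1.21 and 1.63 in WT) and likewise that of *Gabra2* (0.36, 1.34 and 1.66) rests on 1 probe each. Of the 21 receptor genes with several probes, 19 had several above background, and in 16 of these all such probes were highest in the same tissue. The exceptions included *Gabbr2* and *Gabra2*. The remaining 26 receptor genes had 1 probe each, among them *Gabrr1*, *Gabrr2*, *Grm2*, *Gabrd* and *Grin2c*. Their levels could not be compared between probes.

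Liver, heart and muscle were then compared with each other in WT mice. In the liver against the mean of heart and muscle, 9 of 44 receptor genes were higher (20.5%, against 28.9% of all probes) and 9 lower (20.5%, against 27.8%). In the heart, 8 were higher (18.2%, against 19% of all probes) and 5 lower (11.4%, against 22.1%). In the muscle, 4 were higher (9.09%, against 21.9% of all probes) and 10 lower (22.7%, against 24%). These shares were near or below those of all probes. In bulk samples, fewer cells of a type and less RNA per cell cannot be told apart.

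*Gabrr1*, a rho subunit that forms channels of its own and is known from the retina, was the receptor gene of the liver. Its levels were 2.71, 2.34 and 2.38 in WT livers and 2.48, 2.49 and 2.22 in *Rap1* KI/KI livers. In WT mice it measured -2.15, -2.23 and -1.84 in brains, -1.70, -1.60 and -1.91 in hearts and -1.53, -1.86 and -1.93 in muscles. All livers of both genotypes lay more than 3 log2 units above every other tissue, among which the ranges overlapped or met. WT liver was 23.4-fold higher than brain, 18.5-fold higher than heart and 19.0-fold higher than muscle. The log2 difference from heart and muscle was 4.23 (SE 0.18, limma adjusted p = 5.64e-09).

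Its neighbour *Gabrr2*, also a rho subunit, did not share this pattern. Its WT levels were 0.82, 1.13 and 1.00 in livers, 1.48, 0.86 and 0.78 in hearts, 1.11, 0.91 and 0.93 in muscles and 0.17, -0.79 and -0.71 in brains. Liver, heart and muscle overlapped and the brains lay below all of them. The log2 difference of the brain was -1.45 (SE 0.23, limma adjusted p = 0.000218), and that of *Gabrr1* was -1.73 (SE 0.17, 4.51e-06). The promoter windows of the pair, printed above, have similar GC content, and the GC box is in that of *Gabrr1* only.

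In the heart, *Grin2c*, the NMDA subunit of cerebellar granule cells, had levels of -1.50, -1.29 and 0.13 in WT hearts and 3.11, 3.05 and 2.89 in WT brains. In WT muscles (-7.49, -7.54 and -6.44) it was not well above background. The hearts lay between the brains and the other tissues. In WT livers it was well above background on 2 of 3 arrays. WT heart was at least 22.4-fold higher than muscle, and heart against the mean of liver and muscle passed the test (limma adjusted p = 2.65e-06).

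The muscle had *Gabrd*. Levels were -1.46, -0.36 and -0.69 in WT muscles, -3.94, -3.84 and -4.25 in livers, -4.45, -3.36 and -3.50 in hearts and 4.20, 3.82 and 4.09 in brains. Muscles lay above all livers and hearts and below all brains. WT muscle was 9.0-fold higher than liver and 7.62-fold higher than heart, while brain was 29.4-fold higher than muscle. The log2 difference of the muscle was 3.05 (SE 0.30, limma adjusted p = 9.05e-06).

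*Gabra3*, an alpha subunit of fetal and monoaminergic neurons, was on every array. In WT mice its levels were 0.17, -1.27 and -0.72 in livers, -1.19, 0.12 and 0.20 in hearts, -2.25, -2.06 and -1.49 in muscles, and 3.50, 3.29 and 3.41 in brains. Livers and hearts overlapped, and the muscles were lower, with a log2 difference of -1.48 (SE 0.37, limma adjusted p = 0.00702). A second probe of *Gabra3* was well above background in all 3 WT brains and in 0 livers, 1 heart and 0 muscles, so that the signal outside the brain rests on 1 probe.

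**Figure D1:**
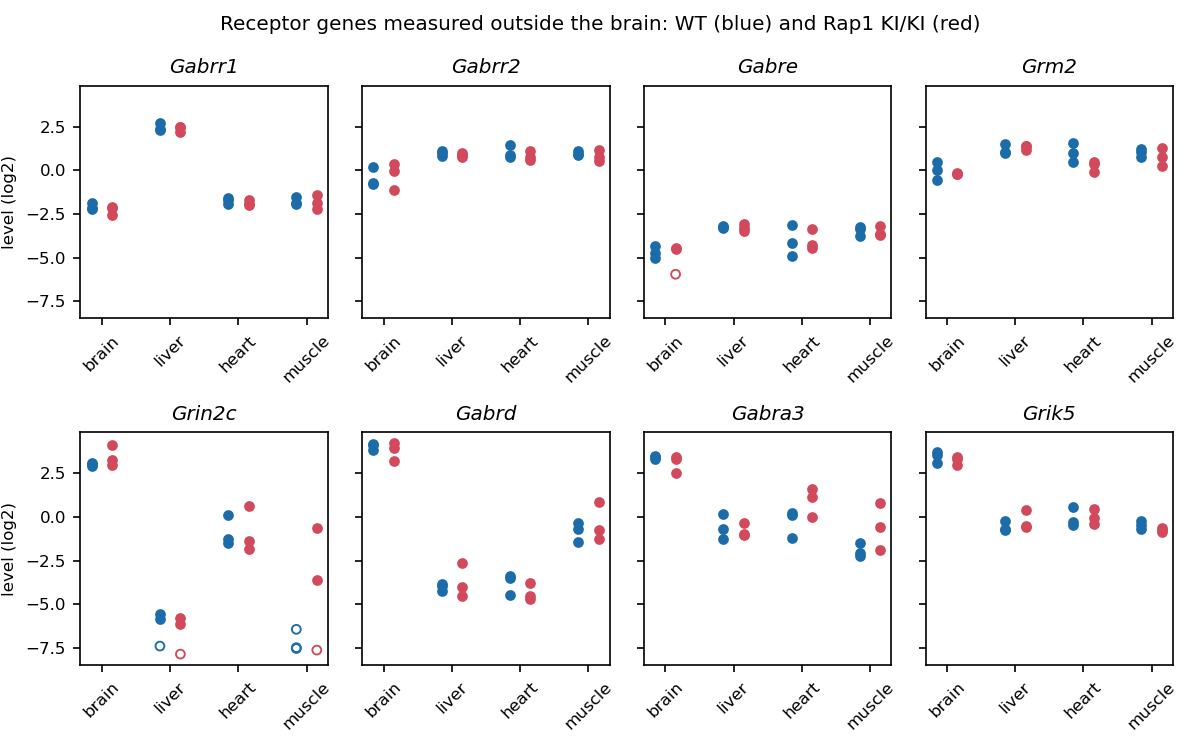
Level (log2, vertical axis) of 8 receptor genes in each of the 4 tissues (horizontal axis), with 1 point per mouse, WT in blue and *Rap1* KI/KI in red, and open points where the gene was not well above background. *Gabrr1* is highest in the livers, *Grin2c* between brain and the other tissues in the hearts, and *Gabrd* highest outside the brain in the muscles.

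When *Rap1* KI/KI mice were compared with WT mice within each tissue, 0 receptor genes passed an adjusted p of 0.05 by limma in the liver (29 tested), brain (45), heart (29) or muscle (21), and 0 probes of the whole array did (0% in each tissue). At an unadjusted p under 0.05 by limma, 760, 999, 2563 and 803 of all probes were counted in the liver, brain, heart and muscle. With single mice left out, these counts ran from 393 to 3520, 370 to 2642, 773 to 3619 and 486 to 2916, and the shares of all probes given below rest on them. The smallest adjusted p of a receptor gene was 0.66, in the heart. With 3 mice against 3, an exact permutation test over the mice cannot give a two-sided p below 0.1, and this smallest p is reached wherever the groups do not overlap. The same limit of 0.1 holds without KI3. The values below are therefore descriptions.

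In the liver, 0 receptor genes had an unadjusted p under 0.05 in either direction, where 1.14% of all probes lay higher in the knock-in group and 1.02% lay lower. All 3 knock-in mice lay above all 3 WT mice for 1 gene (3.45%, against 2.48% of all probes) and below them for 0 (against 3.76%). That gene was *Grin3b*, with levels of -2.75, -3.11 and -2.84 in WT and -2.57, -2.71 and -1.53 in *Rap1* KI/KI livers. The groups lay side by side except for KI3, and the log2 difference was 0.63 (SE 0.34, limma adjusted p = 1). The median difference was -0.06 over the 29 genes and -0.04 over all probes. Outside these counts, the 2 other probes of *Gabbr2* had all knock-in livers below all WT livers. Their log2 differences were -0.95 (SE 0.36) and -0.51 (SE 0.22). The probe that represents *Gabbr2* differed by -0.28 (SE 0.25), and its groups overlapped.

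In the brain, 0 receptor genes were higher and 2 lower at an unadjusted p under 0.05 (4.44%, against 1.52% of all probes, with 1.12% of all probes higher). All knock-in mice lay below all WT mice for 4 genes (8.89%, against 3.73% of all probes) and above them for 1, the AMPA subunit *Gria1* (2.22%, against 4.2%). *Grin2a*, the NMDA subunit of mature synapses, measured -1.82, -1.88 and -1.86 in WT and -2.35, -2.47 and -2.39 in *Rap1* KI/KI brains. The groups were tight and apart, with a log2 difference of -0.55 (SE 0.15, limma adjusted p = 1). A second probe of *Grin2a* did not share this. It measured 0.91, 1.00 and 1.25 in WT and 0.54, 0.68 and 1.54 in *Rap1* KI/KI brains, with a difference of -0.13 (SE 0.30, exact permutation p = 0.7), and KI3 was the highest of the 6.

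*Gabrg3*, a gamma subunit, measured -2.45, -2.39 and -2.68 in WT and -2.91, -3.00 and -3.49 in *Rap1* KI/KI brains. Its log2 difference was -0.62 (SE 0.22, limma adjusted p = 1), and -0.45 without KI3. Here the second probe had its groups apart in the same direction, at -3.58, -3.36 and -3.68 in WT and -4.30, -3.89 and -4.70 in *Rap1* KI/KI brains, a difference of -0.76 (SE 0.25). The other 2 genes with all knock-in brains below all WT brains were *Gabrp* (-1.03, SE 0.48), which was well above background on 3 of 6 arrays, and *Grm7* (-0.31, SE 0.16). Outside these counts, the 2 other probes of *Gabbr2* also had all knock-in brains below all WT brains (-0.35, SE 0.18, and -0.47, SE 0.21). The groups of its representing probe overlapped (-0.60, SE 0.45).

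Over the 45 genes tested in the brain, the median log2 difference was -0.23, against -0.05 over all probes, and in the knock-in mice 9 genes were on the higher side and 36 on the lower. This rested on KI3, whose brain had a median difference of -0.38 from the mean of the other 5 brains over the 47 genes, against -0.10 to 0.26 for each of the others. Without that mouse the median was -0.05 and 19 of the 45 were higher. The brain of KI3 had the lowest level of the 6 brains for *Gabrb2* (3.66), *Gabra3* (2.50) and *Gabrd* (3.23), and the highest for *Gria1* (3.79) and *Gabra5* (1.70). Its microglial marker median was 3.57, against 1.46 to 2.19 on the other 5 brain arrays, and its striatal marker median was 1.21, against 2.20 to 3.67. Their part in these values was not tested.

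In the heart, 4 receptor genes were higher at an unadjusted p under 0.05 (13.8%, against 5.13% of all probes) and 0 lower (against 2.22%). All knock-in mice lay above all WT mice for 3 genes (10.3%, against 6.04% of all probes) and below them for 0 (against 8.19%). Both counts include *Grik2*, which was tested through its 3 knock-in hearts alone. They also include *Grin2a*, above background in 1 WT and 3 knock-in hearts. The shares rest in part on this filter and are descriptions only. *Gabbr1* measured -1.41, -0.97 and -1.57 in WT and -0.72, -0.82 and -0.28 in *Rap1* KI/KI hearts, a log2 difference of 0.71 (SE 0.26, limma adjusted p = 0.66). The groups did not overlap, and the other 2 probes of the gene differed by 0.30 and 0.61 (exact permutation p = 0.5 and 0.2).

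*Grin2a* measured -5.78, -5.73 and -5.65 in WT and -5.29, -5.03 and -4.81 in *Rap1* KI/KI hearts. It was well above background in 1 WT and all 3 knock-in hearts, so that these are signals at the edge of detection, and its second probe was above background in 1 heart. The log2 difference was 0.68 (SE 0.21, limma adjusted p = 0.66). The kainate subunit *Grik2* measured -6.50, -6.05 and -6.56 in WT hearts, none of them well above background, and -4.34, -5.57 and -5.74 in *Rap1* KI/KI hearts. It had a limma adjusted p of 0.66, and its other probe was above background in the heart of KI3 only. The fourth gene was *Grik3* (1.00, SE 0.41), whose groups overlapped.

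The number of receptor genes above background in a heart went with that of neuron markers. All 10 neuron markers were well above background in the hearts of KI1 and KI3, against 6 or 7 in the other 4 hearts, with medians of -2.02 and -0.40 against -2.98 to -2.67. The same hearts had 30 receptor genes above background, against 22 to 26. Of the genes named above, *Gabbr1* (-0.28 and -0.72) and *Grik3* (-4.44 and -5.33) had their highest levels in KI3 and KI1. *Grin2a* was highest in KI3 (-4.81), whereas *Grik2* was highest in KI1 and lowest of the knock-in hearts in KI3. Over all 47 genes, including those at background, the median against the other hearts was highest in WT3 (0.55), with a neuron median of -2.67. The median genotype difference over the 29 genes was 0.20, against -0.01 over all probes. It rested on single mice, being 0.01 without WT1, 0.04 without WT2, 0.54 without WT3 and 0.16 without KI3, and was -0.05 after normexp background correction. The count of 4 of 29 genes stood beside 2563 of all 34848 probes in either direction. With single mice left out it ranged from 1 gene without KI3 (773 probes) to 8 genes without KI2 (2138 probes). The part of nerve tissue in the heart samples was not tested.

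In the muscle, 2 receptor genes were higher at an unadjusted p under 0.05 (9.52%, against 1.52% of all probes) and 0 lower (against 0.963%). All knock-in mice lay above all WT mice for 3 genes (14.3%, against 2.52%) and below them for 1, *Gabrg3* (4.76%, against 3.71%). *Gabbr2* measured -4.39, -4.74 and -4.01 in WT and -3.85, -3.64 and -3.15 in *Rap1* KI/KI muscles, a log2 difference of 0.83 (SE 0.28, limma adjusted p = 0.95). The groups lay apart, with KI3 the highest, and the other 2 probes of *Gabbr2* were above background in the muscle of KI3 and in no other.

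*Gabrb2* measured -4.11, -3.95 and -3.92 in WT and -3.22, -3.90 and 1.05 in *Rap1* KI/KI muscles (difference 1.97, SE 1.18). KI3 was far above its group. Without it, the differences of *Gabbr2* and *Gabrb2* were 0.63 and 0.44. At an unadjusted p under 0.05 by limma there were then 0 of the 21 genes, and 783 of all 32382 probes. The count of receptor genes was also 0 without WT1 (605 probes) and without WT2 (486 probes). It was 2 without WT3 (1215 probes), 3 without KI1 (2916 probes) and 6 without KI2 (1161 probes). The median over the 21 genes was 0.47 with and 0.11 without KI3, against -0.06 and -0.03 over all probes.

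Whether the genotype difference varied between tissues was tested as an interaction over all 24 arrays. Of 46 receptor genes, 0 passed the adjusted threshold by limma (0% of all probes). At an unadjusted p under 0.05 there were 2 (4.35%, against 2.91% of all 43675 probes), *Gabrg1* and *Grik3*, both with a limma adjusted p of 1 and both high in the muscle of KI3. Without KI2 there were 11. The share of all probes in that run is not given here, so this count cannot be read as a result about the receptor genes.

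**Figure D2:**
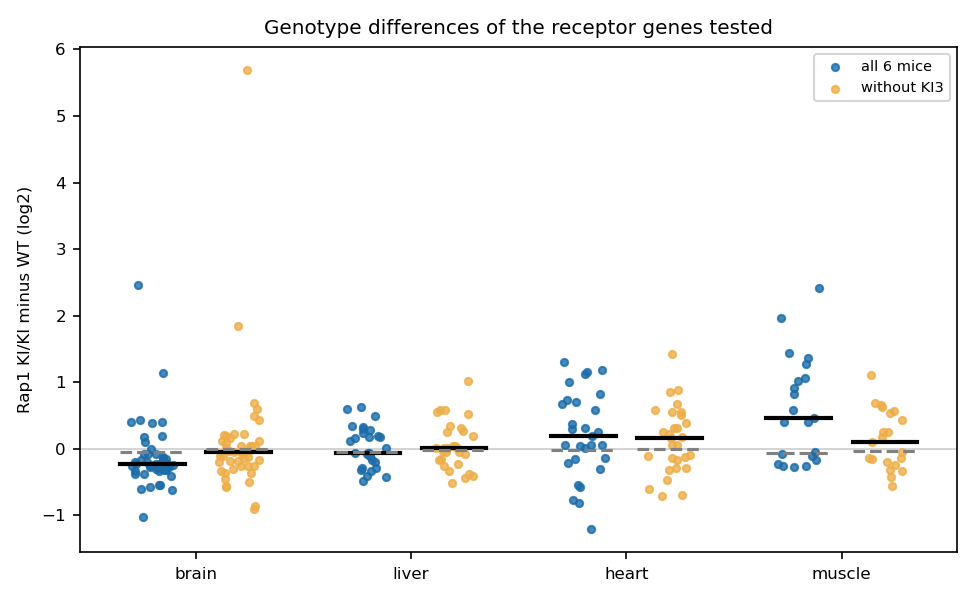
Difference of *Rap1* KI/KI from WT means (log2, vertical axis) of each receptor gene tested in a tissue (horizontal axis), with all 6 mice (blue) and without KI3 (orange). Black bars are medians of the receptor genes and grey dashed lines those of all probes, and the receptor median in the muscle moves from 0.47 to 0.11 and that in the brain from -0.23 to -0.05 when KI3 is left out.

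The muscle array of KI3 carried many receptor transcripts that the other muscle arrays lacked. Well above background there and on no other muscle array were 13 genes, among them *Gria1*, *Gria2*, *Grik1*, *Grin1*, *Grin2a*, *Grin3a*, *Grid1*, *Grm3*, *Grm7*, *Gabra4*, *Gabra5* and *Gabrb1*. All 13 were well above background in the brain of the same mouse, as were 41 of the 47 genes. The genes named here were also well above background in every other brain, so they do not tell the brain of KI3 from the others. Of the 6 genes that were not above background in the KI3 brain, 0 appeared in its muscle alone.

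*Grm7* measured -1.42 in the muscle of KI3, against -7.85 to -7.55 in the other 5 muscles and 1.41 in the brain of KI3. *Grin1* measured -0.48 there, against -6.03 to -5.50 in the other muscles and 2.43 in the KI3 brain. In both cases the KI3 muscle lay well above the other muscles and below its own brain. Over the 13 genes it lay 2.51 to 5.58 log2 units below that brain, with a median difference of -3.11. In all, 26 of the 47 genes were more than 1 log2 unit higher in this muscle than in any other.

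Genes that were above background on all 5 other muscle arrays were higher in the KI3 muscle in some cases and not in others. *Gabrb2* (1.05, against at most -3.22), *Gria3* (-0.70 and -3.53), *Gabbr1* (1.44 and -0.97), *Gabra3* (0.81 and -0.59) and *Gabrd* (0.85 and -0.36) lay above every other muscle. *Gabrr1* (-1.89), *Grik5* (-0.64) and *Grm2* (0.74) were within the range of the other muscles. *Gabra6* was not well above background in the brain of KI3 (-7.66) or in its muscle (-7.58). It was not in the other 5 muscles (-7.47 to -7.26) or in the brain of WT3 (-8.53) either, so this value does not set the KI3 muscle apart. Astrocyte markers were higher too, with a median of 0.99 against -1.72 to -0.49, as were myelin markers (0.24 against -1.29 to -0.81). The microglial median (0.49) was within the range of the other muscles (-0.90 to 0.55). That of the olfactory bulb list (-2.82) was little above theirs (-3.55 to -2.96). The enzyme of GABA synthesis *Gad1* measured 0.55 against -7.56 to -5.18. The muscle of KI1 had smaller signals of this kind, with 9 of 10 neuron markers above background (median -1.95). The source of these signals on the 2 arrays was not tested.

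**Figure D3:**
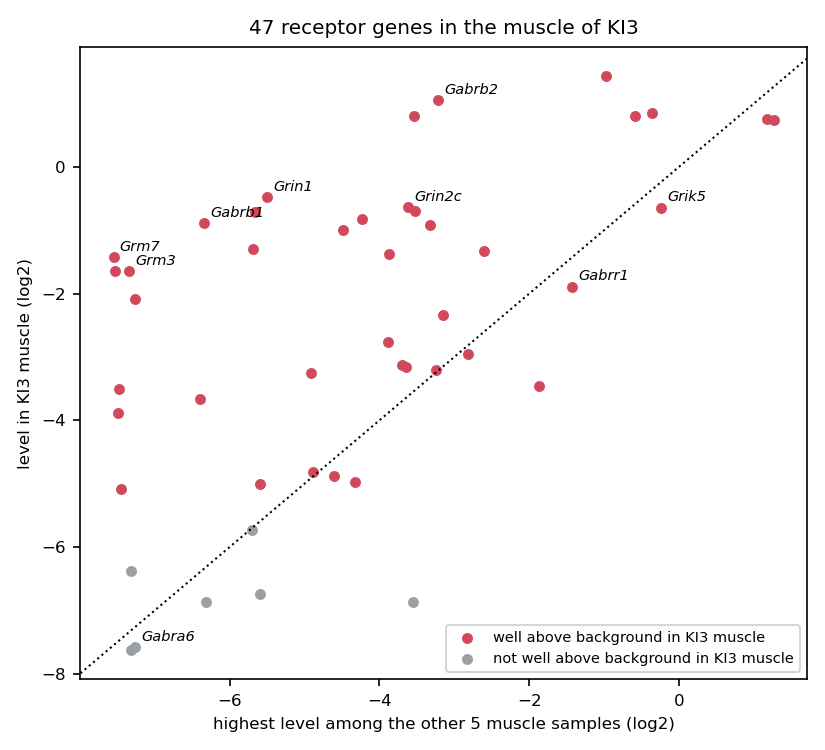
Level of each of the 47 receptor genes in the muscle of KI3 (vertical axis, log2) against its highest level among the other 5 muscle samples (horizontal axis, log2), with the dotted line at equal levels and grey points for genes not well above background in the KI3 muscle. 26 genes lie more than 1 log2 unit above the line, with *Grm7*, *Grm3*, *Gabrb1* and *Grin1* among the farthest, while *Gabrr1* and *Grik5* lie near it.

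The brains differed in how much cerebellum they showed, and *Gabra6* followed. *Gabra6* encodes the alpha subunit of cerebellar granule cells. Its levels were 0.11, -2.56 and -8.53 in the brains of WT1, WT2 and WT3 and 2.80, 1.25 and -7.66 in those of KI1, KI2 and KI3. It was not well above background in WT3 and KI3, and both genotypes held brains with and without it. The genotype difference was 2.46 (SE 3.34, limma adjusted p = 1, exact permutation p = 0.5).

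The 12 cerebellar markers had medians of 2.30 in KI1, 1.00 in KI2, 0.10 in WT1, -1.16 in WT2, -1.50 in WT3 and -1.66 in KI3. The Purkinje cell marker *Pcp2* measured 6.16, 4.80, 3.97, 1.74, -1.16 and -1.20 in the same mice. The 4 brains with *Gabra6* above background were thus the 4 with the highest cerebellar medians. All 12 markers were higher in *Rap1* KI/KI mice on average (median difference 1.38), and 0 passed the adjusted threshold by limma.

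Other receptor genes showed this less or not at all. *Grin2c*, the subunit of cerebellar granule cells, measured 4.13 in KI1, 3.27 in KI2, 3.11 in WT1, 3.05 in WT2, 2.89 in WT3 and 2.96 in KI3. Its order was that of the cerebellar medians except for WT3 and KI3, over a smaller range than that of *Gabra6*. *Grin3b* was also highest in KI1 (0.28), against -2.90 to -1.13. *Gria2* varied over nearly 3 log2 units in another order, lowest in WT1 (-1.04) and highest in KI3 (1.82). Which parts of the brain went into each sample is not given in the sources used here, and the part of dissection in these values was not tested.

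**Figure D4:**
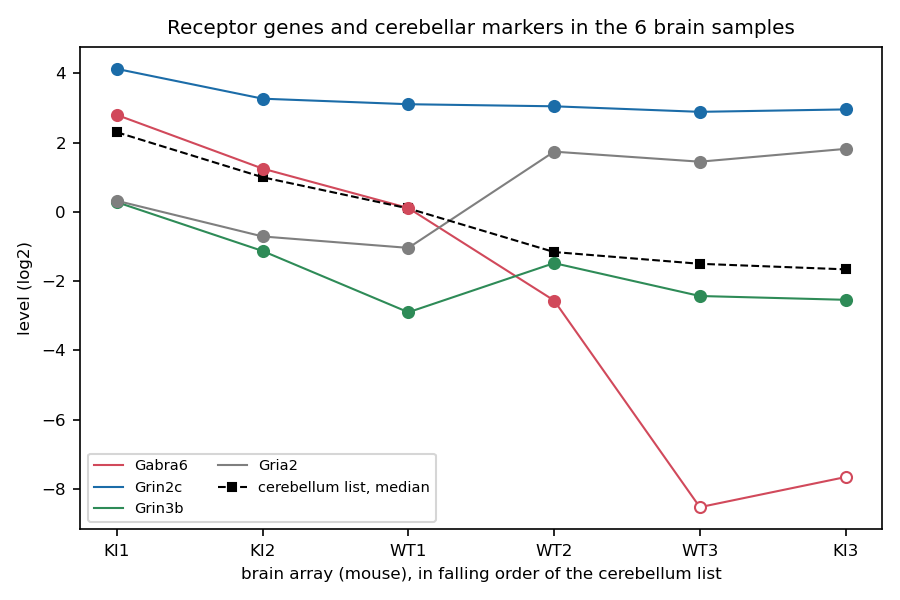
Level (log2, vertical axis) of 4 receptor genes and median of the 12 cerebellar markers (dashed, squares) in the 6 brain samples, ordered along the horizontal axis by that median, with open points where a gene was not well above background. *Gabra6* falls from 2.80 in KI1 to background in WT3 and KI3, *Grin2c* changes by less, and *Gria2* runs in another order.

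The genes around the receptors were read in the same way. Of 20 genes for auxiliary subunits, which carry and tune the receptors, 18 were higher and 1 lower in WT brain than in the other tissues (limma, adjusted p under 0.05), with a median log2 difference of 5.76. Of all probes, 26.7% were higher and 38.9% lower in this comparison. Of 21 genes for the synthesis and transport of glutamate and GABA, 16 were higher and 3 lower (median 3.50). Of 20 postsynaptic scaffold genes, 15 were higher and 1 lower (median 2.50), and all 4 tested genes for glycine receptors were higher (median 5.04). The median over all probes was -0.30. Between genotypes, 0 genes of these lists passed the adjusted threshold by limma in any tissue. In the brain their median differences were -0.17 (auxiliary subunits), -0.12 (synthesis and transport), -0.21 (scaffold) and 0.01 (the 4 glycine receptor genes tested). Those of the receptor genes and of all probes were -0.23 and -0.05. The brain of KI3 had the lowest median level of the 6 brains for auxiliary subunits (0.21), synthesis and transport (2.54) and scaffold (0.68). Differences of these lists without that mouse are not given here. In the muscle of KI3, 18 of the 20 auxiliary and all 21 synthesis and transport genes were well above background, against 9 or 10 and 14 to 18 on the other muscle arrays.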

How the data were processed

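Intensity was deposited by the authors as the background-subtracted, detrended processed signals of Feature Extraction 12.0.3.1, with no normalization between arrays. The deposited score values are z-scores of the log10 signals within each array, recomputed here to within 0.005 and used as an alternative, and 0 columns were left unmapped. The study's text names no normalization or test for the arrays. Log2 signals were set against the 75th percentile of the non-control spots of each array, without spots that carry outlier flags, and repeated spots were averaged per probe. Names came from the accessions of the probes through RefSeq, and 27350 probes have no name here. Some members are in the counts only and are not reported here by name. A probe was tested if well above background on at least 3 arrays of the comparison, with limma 3.58.1 (lmFit and eBayes, two-sided, Benjamini-Hochberg over all probes tested) in R 4.3.3 with data.table (version 1.17.8). Single values were also given an exact permutation test over the mice, added after the limma results were seen. The procedure was tested on simulated data.

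The members and lists were chosen with earlier results of these data known. Values in every sample are given for up to 4 genes per tissue with the genotypes apart and the smallest p, for up to 8 genes measured outside the brain, for the members whose probes were brightest in the brain, and for those that single samples touch. Per the labels the same mouse gave all 4 tissues. The correlation of a mouse's deviations between 2 tissues ran from -0.21 to 0.26 over 6 pairs per mouse. The alternatives were quantile and normexp normalization (offset 50), the z-scores, other filters and probe choices, each mouse left out, age or slide as a block, and the mouse as a replicate block.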

Additional observations from a re-analysis of the deposited data

Results flagged for a closer look

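*Grin2a* was noted because its genotype difference ran opposite ways in 2 tissues. All *Rap1* KI/KI hearts lay above all WT hearts (log2 difference 0.68) and all *Rap1* KI/KI brains below all WT brains (-0.55). The contrast between the brain and the heart alone was not tested. The interaction of genotype with all 4 tissues gave a limma adjusted p of 1. The second probe of the gene differed by -0.13 in the brain and was well above background in 1 heart.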

How the results depend on the processing

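With 3 mice per genotype, differences of the size seen between genotypes could not be told from the spread between mice. No receptor gene passed in any tissue or in the interaction under any alternative run, including each mouse left out (0 to 0). With the mouse as a replicate block, or with age or slide as a block, the genotype count stayed at 0, and the tissue counts were 40 (WT brain, 41 without the block), 41 (*Rap1* KI/KI brain, 41), 17 (liver, 18), 12 (heart, 13) and 14 (muscle, 14). These tissue counts take both directions together, over 44 genes tested. With only probes well above background on all arrays, fewer genes were tested. The counts were then 15 of 17 (WT brain), 15 of 16 (*Rap1* KI/KI brain), and 8 of 17 each for liver, heart and muscle. The shares of all probes were 68.9%, 69.9%, 61.5%, 46.1% and 51.1%, against 65.6%, 67.6%, 56.8%, 41.1% and 45.9% with the filter used above. With each mouse left out and 44 genes tested, the counts ran from 40 to 40, 40 to 42, 13 to 17, 6 to 14 and 9 to 14. The lowest counts of the heart (6) and the muscle (9) came without WT2, where the shares of all probes were 25.8% and 32.9%. *Grm2* kept its direction in the brain but lost its call without WT3 (-1.10). No called result changed direction. Chosen after seeing the data were the probe brightest in the brain, which gave *Grin2a* in the brain as -0.13, and leaving out the muscle array of KI3, which left 41 genes called in the *Rap1* KI/KI brain contrast and 0 in the interaction. The median genotype difference over the receptor genes ranged over the alternatives from -0.19 to 0.15 (liver), -0.32 to -0.05 (brain), -0.05 to 0.54 (heart) and 0.11 to 0.92 (muscle), so that its sign turned in the liver under 5 alternatives (0.01 to 0.15) and in the heart (-0.05 with normexp). The median of the brain against the other tissues ranged from 2.43 (probes well above background on all arrays) to 6.88 in WT mice, with 4.26 for normexp, and from 3.39 to 6.47 in *Rap1* KI/KI mice. The mice of different age were also on different slides in the brain, so age and slide cannot be told apart there. Genes near background, such as *Grik2* in the heart, are limited by signal over background.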

Other observations

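In the liver, *Grm8*, a presynaptic metabotropic receptor, measured -0.63 and -0.55 in the 5-month mice WT1 and KI1, and -2.15, -3.54, -2.48 and -4.28 in the 2-month mice WT2, WT3, KI2 and KI3. The gene was chosen after its values were seen, and the difference by age was not tested.

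In the muscle, the NMDA subunit *Grin2d* was well above background in WT3 only (-3.55, against -7.59 to -6.70 in the other 5 mice), and the astrocyte marker *Gfap* was well above background in WT1 (-2.85) and KI3 (1.72).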
